A study of Mus musculus with 15 samples.

Results

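The aquaporins are the membrane channels that let water, and in some members glycerol or other small molecules, cross the lipid bilayer. The 7 members described here, Aqp1, Aqp3, Aqp4, Aqp5, Aqp7, Aqp8 and Aqp11, were found by symbol among the 78298 genes of the deposited count files, and all 7 passed the filter on low counts, Aqp5 only through its spheroid libraries and Aqp8 only through those of budding SOX9-Halo organoids. The set was chosen by measured values, namely the size of the differences in Aqp5 and Aqp3 counts between conditions, so the levels of these genes and their fold changes are given as a description, with no test. The tests below concern the other 5 members, and of these Aqp8 is given by its values alone, since it was admitted by the one condition in which it was high. For these 7 genes, as in any bulk RNA sample, fewer cells of a type and less RNA per cell cannot be told apart.

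The 15 poly-A RNA-seq libraries came from mouse small intestinal organoids, 3 for each of 5 conditions. All lines were derived from crypts of wild-type female C57BL/6J mice and carried lentiviral transgenes driven by the L30 promoter, a weak promoter active in all cells. The control line expressed a HaloTag with a nuclear localization signal (Halo-NLS, transgene L30prom_V5-Halo-GDGAGLIN-NLS_IRES_Puro), and the SOX9 lines expressed the transcription factor SOX9 fused to HaloTag (L30prom_Sox9-GDGAGLIN-Halo-V5_IRES_Puro) or to mEGFP (L30prom_Sox9-GDGAGLIN-mEGFP-V5_IRES_Puro). Each SOX9 line was sampled as budding organoids and, at later passages, as round spheroids. The SOX9-Halo spheroids also carried L30prom_H2B-GDGAGLIN-mEGFP-V5_IRES_Zeo and the SOX9-mEGFP spheroids L30prom_H2B-GDGAGLIN-mScarletI-V5_IRES_Neo, so spheroid shape, passage and the H2B transgene cannot be told apart. Each condition is 1 stable line, and the 3 libraries of a condition are biological replicates of that line.

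Aquaporins assemble as tetramers in which every subunit holds its own pore. Classical members such as Aqp1, Aqp4 and Aqp5 conduct mainly water, aquaglyceroporins such as Aqp3, Aqp7 and Aqp9 also conduct glycerol, Aqp8 also conducts ammonia and hydrogen peroxide, and Aqp11 belongs to a divergent, mostly intracellular branch. In the gut they sit in the apical or basolateral membrane of epithelial cells, where water follows the salt and nutrients that transporters carry.

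Sox9 itself, the overexpressed gene, had normalized counts of 305 to 769 in the Halo-NLS libraries and of 1336 to 23654 in the 12 SOX9 libraries, with reads of the transgene and of the endogenous gene counted together. The lowest, 1336, was budding SOX9-Halo replicate 1, and every other SOX9 library held at least 6487. Every library held between 28062722 and 40559766 reads assigned to genes. The epithelial markers Epcam and Cdh1 were abundant in all 15 libraries, while the summed level of 7 intestinal epithelial markers was 3391 to 3577 CPM (counts scaled to library size) in SOX9-Halo spheroids and 6439 to 11504 CPM in the other conditions. Cdx2, an intestinal identity factor of that list, had 82 to 105 counts per SOX9-Halo spheroid library and at least 2169 in every other library. The part of this difference in the aquaporin values was not tested.

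Normalized counts are deposited counts divided by TMM-scaled library sizes, at the mean library size. A member was called at an adjusted p of at most 0.01 in edgeR's quasi-likelihood test over 17560 genes, with at least a 2-fold change and at least 10 normalized counts on average. Changes are log2 fold changes ± SE from 3 libraries per condition. Where no library of a condition exceeded 3 counts of a gene, the ratio of the counts summed over each condition is given instead, with an exact 95% interval that covers counting error only.

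The members open to a test were Aqp1, Aqp4, Aqp7 and Aqp11. Of these, Aqp4, Aqp7 and Aqp11 were called lower than in Halo-NLS in SOX9-Halo spheroids. There, 15.3% of all genes tested were called lower and 28.9% in either direction. The same 3 members were called lower in SOX9-mEGFP spheroids, beside 12.1% of all genes lower and 27.5% in either direction. Aqp1 and Aqp8 were called in neither spheroid comparison. In budding SOX9-Halo organoids 0 of the members open to a test were called by edgeR (3.75% of all genes were), and DESeq2 called 1, Aqp4. Aqp4 and Aqp7 had an unadjusted p under 0.05 (37.5% of all genes had), with Aqp8 left out of this count. In budding SOX9-mEGFP organoids 0 were called by edgeR (2.76% of all genes were) or by DESeq2, and 0 had an unadjusted p under 0.05.

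Separation of libraries was also counted over all 7 members, as a description. Aqp3 and Aqp5 were chosen for their change, and Aqp8 passed the filter through budding SOX9-Halo organoids alone. These counts therefore cannot be weighed against the shares of all genes. Against Halo-NLS, 4 members showed no overlap in SOX9-Halo spheroids (54.8% of all genes tested did), 5 in SOX9-mEGFP spheroids (56.5%), 4 in budding SOX9-Halo organoids (29.7%) and 1, Aqp5 at 0 to 1 counts, in budding SOX9-mEGFP organoids (32.5%). From budding organoids to spheroids 6 members separated in the SOX9-Halo line (52.8%) and 6 in the SOX9-mEGFP line (46.0%). The lines separated for 4 members as spheroids (48.6%) and for 4 as budding organoids (12.0%). From budding organoids to spheroids the separated members included Aqp3 and Aqp5 in both lines and Aqp8 in the SOX9-Halo line. Between the lines they included Aqp3 in both shapes, Aqp5 as spheroids and Aqp8 as budding organoids.

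**Figure D1:**
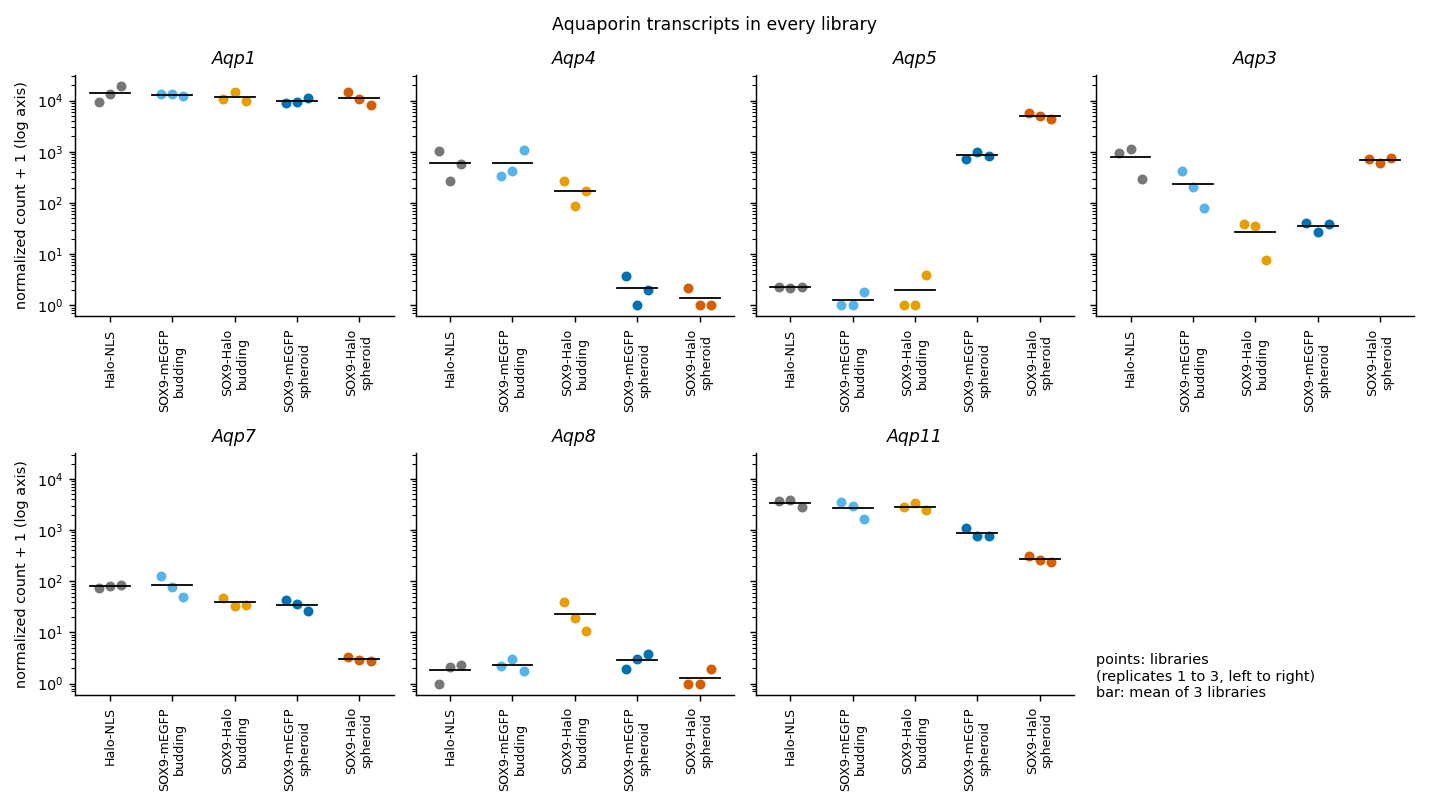
Normalized count plus 1 of each of the 7 aquaporins (log axis) in the 3 libraries of each condition, with replicates 1 to 3 from left to right and a bar at their mean. Aqp1 lay between 8249 and 19787 in all 15 libraries, Aqp5 was at most 2.93 outside the spheroids, and Aqp4 was at most 2.66 within them.

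Aqp5 (ENSMUSG00000044217) lies on chromosome 15 at chr15:99488532-99492710 of GRCm39, plus strand, 3515 bases after Aqp2 and 6364 bases before Aqp6. It is best known as the apical water channel of salivary, lacrimal and alveolar epithelium. The 250 bases before its annotated start are shown beside those of Aqp3, because these are the members by which the set was chosen. Lower case is GRCm39 sequence read 5′ to 3′ on the strand of the gene, and capitals mark the GC boxes (GGGCGG on either strand) and the TATA box (TATAAA).
Aqp5, chr15:99488282-99488531, plus strand: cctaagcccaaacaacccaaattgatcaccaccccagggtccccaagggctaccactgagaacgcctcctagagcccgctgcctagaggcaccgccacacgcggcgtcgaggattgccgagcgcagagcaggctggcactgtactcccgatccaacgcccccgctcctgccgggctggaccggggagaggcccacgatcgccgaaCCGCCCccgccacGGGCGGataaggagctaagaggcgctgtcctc
Aqp3, chr4:41098184-41098433, minus strand: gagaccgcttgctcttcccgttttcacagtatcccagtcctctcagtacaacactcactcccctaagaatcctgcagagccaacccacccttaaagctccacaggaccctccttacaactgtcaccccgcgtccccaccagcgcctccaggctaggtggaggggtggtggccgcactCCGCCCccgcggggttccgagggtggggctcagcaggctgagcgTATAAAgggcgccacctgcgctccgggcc
The Aqp5 window held 2 GC boxes, one on each strand, and the Aqp3 window held 1 GC box and a TATA box, against GC boxes in 36.3% and TATA boxes in 11.9% of 21723 protein-coding promoters of the same length. Their GC contents were 67.2% and 64%, against a median of 53.2%. Neither window held ACAAAG or ACAATG, the letters used here for a SOX core (23.7% of promoters hold one on either strand), or the TEAD core GGAATG (12.1%). The RefSeq promoter of Aqp5 shares fewer than 100 bases with this window, that is, RefSeq annotates another start.

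Aqp5 was all but uncounted outside the spheroids. Halo-NLS replicates 1 to 3 held 1, 1 and 1 counts, budding SOX9-mEGFP organoids 0, 0 and 1, and budding SOX9-Halo organoids 0, 0 and 3. The SOX9-mEGFP spheroid libraries held 802, 994 and 885 counts and the SOX9-Halo spheroid libraries 4848, 5403 and 4805. All 6 spheroid libraries therefore lay above all 9 others, and the SOX9-Halo spheroids lay above the SOX9-mEGFP spheroids without overlap.

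On the normalized scale Aqp5 averaged 850 ± 142 (SD, n = 3) in SOX9-mEGFP spheroids and 5060 ± 710 (SD, n = 3) in SOX9-Halo spheroids. Summed over libraries and scaled for depth, Aqp5 counts in SOX9-Halo spheroids were 4052 times those in Halo-NLS (interval 1386 to 19652), and those in SOX9-mEGFP spheroids 684 times (234 to 3321). Against the budding organoids of their own line the ratios were 5514 (1887 to 26743) for SOX9-Halo and 2592 (465 to 102431) for SOX9-mEGFP. Between the spheroids of the 2 lines the fitted difference was 2.57 ± 0.32 on the log2 scale, that is, 5.95-fold higher in the SOX9-Halo line. The wide intervals come from the 1 to 3 reads summed in each of the low conditions.

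Counting was not stranded, and the antisense lncRNA Gm34765 shares 374 exonic bases with Aqp5. Gm34765 had 35 to 60 counts per SOX9-Halo spheroid library, 11 to 22 per SOX9-mEGFP spheroid library and at most 1 elsewhere. Reads of the 2 genes cannot be told apart in the shared bases, and the union mode used counts such ambiguous reads for neither gene.

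Markers of the other epithelia that use Aqp5 are given beside it. Of 8 lung alveolar markers, Sftpc and Nkx2-1 were at 0 in all spheroid libraries, while Sftpd, a secreted lectin of lung and other mucosae, had 9930 to 12181 counts in SOX9-Halo spheroids, 4471 to 6758 in SOX9-mEGFP spheroids and at most 11 elsewhere. The summed alveolar list was 325 to 437 CPM in SOX9-Halo spheroids, 221 to 317 in SOX9-mEGFP spheroids and 120 to 189 in the other conditions. Nearly all of the organoid sum was Hopx, a homeobox gene also known from intestinal stem cells, which was at 165 to 188 CPM in Halo-NLS, 91.9 to 132 in SOX9-mEGFP spheroids and 31.9 to 85.5 in SOX9-Halo spheroids, so that Sftpd alone made the sum higher in spheroids. Of 10 antral stomach markers, Sox2 was at 0 in every library, and the list summed to 3.54 to 9.28 CPM in SOX9-Halo spheroids, 20.5 to 29.5 in SOX9-mEGFP spheroids and 5.61 to 15.0 elsewhere. Its members did not move alike, since Gkn1 had 38 to 45 counts in SOX9-Halo spheroids, 53 to 159 in SOX9-mEGFP spheroids and at most 6 elsewhere, Cldn18 had 21 to 42, 41 to 47 and at most 14, and Pdx1 had 24 to 73, 426 to 467 and 67 to 392. Of the 4 salivary and lacrimal acinar markers found in the files, Smr3a was at 0 in all 15 libraries, and the list summed to 6.14 to 36.4 CPM, nearly all of it Bhlha15. The part of these genes in the Aqp5 values was not tested.

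Aqp1 (ENSMUSG00000004655, chr6:55313068-55325540, plus strand) was the first water channel to be identified, in red cells and kidney, and is widespread in endothelium. It was the most abundant member in every condition. Normalized counts were 9349, 13606 and 19787 in Halo-NLS, 13586, 13723 and 12124 in budding SOX9-mEGFP organoids, and 10975, 14826 and 9846 in budding SOX9-Halo organoids. They were 8948, 9521 and 11204 in SOX9-mEGFP spheroids and 14726, 10816 and 8249 in SOX9-Halo spheroids. The conditions overlapped, apart from SOX9-mEGFP spheroids, whose 3 libraries were all below the 3 budding libraries of that line.

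No comparison of Aqp1 passed the test. Against Halo-NLS the fitted difference was −0.34 ± 0.27 in SOX9-Halo spheroids (edgeR quasi-likelihood test, adjusted p = 0.314) and −0.53 ± 0.27 in SOX9-mEGFP spheroids (adjusted p = 0.115), beside medians of −0.01 and 0.03 over all genes tested. From budding organoids to spheroids it was −0.08 ± 0.27 in the SOX9-Halo line (adjusted p = 0.847) and −0.41 ± 0.27 in the SOX9-mEGFP line (adjusted p = 0.305). The 5 endothelial markers summed to at most 1.57 CPM in any library, and the 4 globin genes Hbb-bs, Hbb-bt, Hba-a1 and Hba-a2 were at 0 in the Halo-NLS and budding libraries. Aqp1, per length, stood at 99.0 to 143 CPM per kb in the means of the 5 conditions.

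Aqp4 (ENSMUSG00000024411, chr18:15522451-15544039, minus strand) is the water channel of astrocyte end feet and is also known from the basolateral membrane of gastric parietal cells. Its normalized counts were 1016, 265 and 571 in Halo-NLS, 332, 412 and 1082 in budding SOX9-mEGFP organoids and 264, 86.6 and 171 in budding SOX9-Halo organoids. In spheroids it was at the floor of detection, with 3, 0 and 1 counts in the SOX9-mEGFP libraries and 1, 0 and 0 in the SOX9-Halo libraries. Both spheroid conditions lay far below every organoid library, with no overlap.

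Relative to Halo-NLS, summed Aqp4 counts were 1811 times lower in SOX9-Halo spheroids (interval 324 to 71566, adjusted p = 1.02e-06 in edgeR) and 477 times lower in SOX9-mEGFP spheroids (186 to 1754, adjusted p = 2.34e-06). The fall from budding organoids was called in both lines, by 542 times in SOX9-Halo (97.0 to 21460, adjusted p = 8.32e-06) and 532 times in SOX9-mEGFP (208 to 1956, adjusted p = 3.95e-06). These sizes rest on 1 and 4 reads in the spheroids, and the only Aqp4 read of the SOX9-Halo spheroids was in replicate 1. With 1 library left out, the fitted log2 change against Halo-NLS, which at such counts depends on the prior count, ranged from −12.28 (without that replicate) to −9.82 in SOX9-Halo spheroids and from −9.97 (without SOX9-mEGFP spheroid replicate 1) to −8.24 in SOX9-mEGFP spheroids. Against budding organoids it ranged from −10.46 to −8.11 and from −9.97 to −8.12, and Aqp4 was called each time. Of all genes tested, 25.3% were called in either direction and 14.7% lower in the SOX9-Halo line, against 16.4% and 7.88% in the SOX9-mEGFP line.

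Among the organoid conditions Aqp4 had its lowest mean in the SOX9-Halo line. Budding SOX9-Halo organoids were at −1.82 ± 0.57 against Halo-NLS, with all 3 libraries below the 3 Halo-NLS libraries, and the adjusted p of 0.0391 in edgeR missed the threshold. DESeq2 gave an adjusted p of 0.00953 for the same comparison. Budding SOX9-mEGFP organoids were at −0.02 ± 0.55 (adjusted p = 0.986). Of 5 parietal and chief cell markers, the proton pump subunit Atp4b and Cblif had at most 2 and 6 counts in a library, and Atp4a, the other pump subunit, had 79 to 226 in the organoids, 263 to 360 in SOX9-mEGFP spheroids and 28 to 57 in SOX9-Halo spheroids. Pgc, a chief cell gene, had 11 to 72 counts per organoid library and 963 to 8045 per spheroid library. That list summed to 3.01 to 9.18 CPM in the organoid conditions, 36.6 to 38.8 in SOX9-mEGFP spheroids and 128 to 286 in SOX9-Halo spheroids, and its part in the Aqp4 values was not tested.

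Aqp3 (ENSMUSG00000028435, chr4:41092722-41098183, minus strand), the glycerol-conducting basolateral channel of colon, kidney collecting duct and epidermis, moved in opposite directions in the 2 lines. Normalized counts were 963, 1113 and 288 in Halo-NLS, 430, 205 and 77.1 in budding SOX9-mEGFP organoids and 37.4, 34.1 and 6.83 in budding SOX9-Halo organoids. They were 39.0, 26.03 and 38.1 in SOX9-mEGFP spheroids and 728, 612 and 772 in SOX9-Halo spheroids. Halo-NLS and SOX9-Halo spheroids were thus the high conditions and overlapped, while budding SOX9-Halo organoids and SOX9-mEGFP spheroids were the low conditions and overlapped too.

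From budding organoids to spheroids Aqp3 was 4.74 ± 0.70 higher on the log2 scale in the SOX9-Halo line, 26.7-fold, and lower in the SOX9-mEGFP line, by −2.77 ± 0.65, without overlap in either. Against Halo-NLS it was at −4.90 ± 0.70 in budding SOX9-Halo organoids, −1.74 ± 0.60 in budding SOX9-mEGFP organoids, −4.51 ± 0.69 in SOX9-mEGFP spheroids and −0.16 ± 0.58 in SOX9-Halo spheroids. The first and the third of these had no overlap with Halo-NLS. The last changed sign, to 0.12 ± 0.56, when libraries were scaled by their totals alone. The spheroids of the 2 lines differed by 4.35 ± 0.68, 20.4-fold. The order of means was Halo-NLS, SOX9-Halo spheroids, budding SOX9-mEGFP organoids, SOX9-mEGFP spheroids and budding SOX9-Halo organoids, and the ranges overlapped between Halo-NLS and SOX9-Halo spheroids, between Halo-NLS and budding SOX9-mEGFP organoids, and between SOX9-mEGFP spheroids and budding SOX9-Halo organoids. Replicate 3 was the lowest Aqp3 library in Halo-NLS and in both budding conditions. Without budding SOX9-mEGFP replicate 1, the highest library of its condition, Aqp3 was at −2.02 from budding organoids to spheroids of that line and at −2.49 in budding SOX9-mEGFP organoids against Halo-NLS. With 1 library left out these changes ranged from −3.25 to −2.02 and from −2.49 to −1.31.

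**Figure D2:**
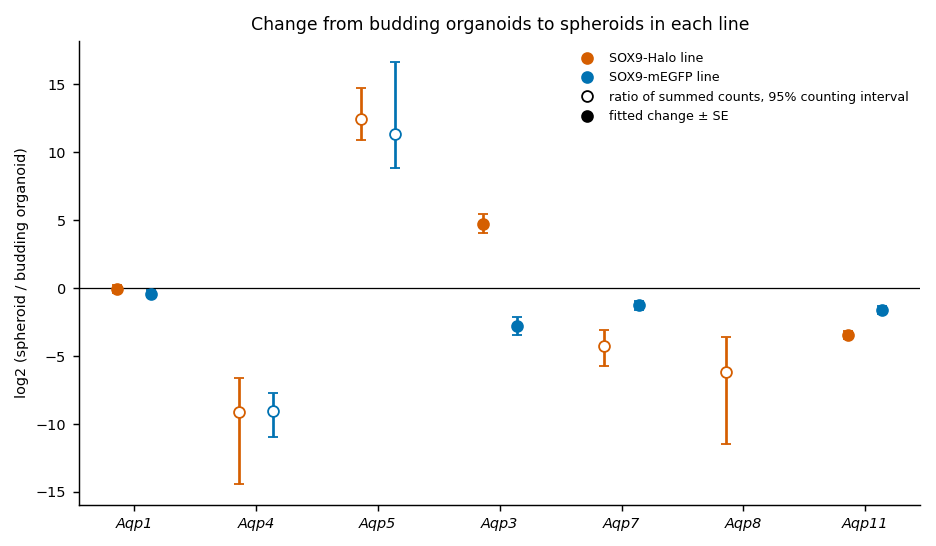
Log2 ratio of spheroids to budding organoids for each aquaporin in the SOX9-Halo line (orange) and the SOX9-mEGFP line (blue). Filled points are fitted changes ± SE and open points are ratios of summed counts with 95% counting intervals, used where a condition held at most 3 counts per library. Aqp3 stood at 4.74 in one line and −2.77 in the other, and Aqp8 of the SOX9-mEGFP line is left out because both its conditions were at the floor.

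Aqp7 (ENSMUSG00000028427, chr4:41032835-41048211, minus strand) lies 44510 bases from Aqp3 and is known as the channel that releases glycerol from fat cells. It was a low-abundance transcript with normalized counts of 74.5, 81.5 and 85.5 in Halo-NLS, 125, 74.8 and 47.5 in budding SOX9-mEGFP organoids and 46.9, 32.1 and 34.1 in budding SOX9-Halo organoids. The SOX9-mEGFP spheroids stood at 42.6, 35.0 and 24.8, and each of the SOX9-Halo spheroid libraries held 2 counts. SOX9-Halo spheroids were below all other libraries, and SOX9-mEGFP spheroids were below the Halo-NLS and budding SOX9-mEGFP libraries.

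Summed Aqp7 counts were 40.5 times lower in SOX9-Halo spheroids than in Halo-NLS (interval 18.3 to 112, adjusted p = 3.67e-07 in edgeR) and 19.3 times lower than in budding SOX9-Halo organoids (8.61 to 53.5, adjusted p = 4.78e-06). In SOX9-mEGFP spheroids Aqp7 fell by 1.23 ± 0.34 on the log2 scale against Halo-NLS (adjusted p = 0.00768). This call was close to the threshold, since the adjusted p rose to 0.0324 with no filter on low counts, to 0.0202 with library totals alone, and to between 0.0109 and 0.0369 when any one of the 6 libraries was left out. Against budding SOX9-mEGFP organoids the difference of −1.26 ± 0.34 just missed the threshold (adjusted p = 0.0105), and it passed with the replicate number as a block (0.00539), with DESeq2 (0.00857), with library totals alone (0.00965) or without budding SOX9-mEGFP replicate 3 (0.00171). It did not pass without any other 1 of the 6 libraries, and without budding SOX9-mEGFP replicate 1 it was −0.83 ± 0.32 (adjusted p = 0.0758). Budding SOX9-Halo organoids were at −1.09 ± 0.34 against Halo-NLS without overlap, which did not pass (adjusted p = 0.0372).

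Of 5 adipocyte markers Adipoq was at 0 in all libraries and Cidec, a lipid droplet protein also made in gut epithelium, made up most of the list. Cidec had 8 to 29 counts in SOX9-Halo spheroid libraries and 380 to 872 in all others, and the list summed to 0.268 to 1.02 CPM against 8.89 to 29.9 CPM. Its part in the Aqp7 values was not tested.

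Aqp9, the liver and leukocyte aquaglyceroporin, is no member of the set but was the remaining aquaporin gene that passed the filter on low counts, and it did so only through SOX9-mEGFP spheroids, so no test is given. Those spheroids held 43, 67 and 63 counts per library against 0, 1 and 12 in Halo-NLS and 1 to 6 in budding SOX9-mEGFP organoids. They stood 10.0-fold over Halo-NLS (3.33 ± 0.76 on the log2 scale), a size that rests mainly on the 12 reads of Halo-NLS replicate 3. SOX9-Halo spheroids held 4 to 8 counts of Aqp9. The summed level of 5 leukocyte markers was 2.19 to 5.42 CPM in SOX9-mEGFP spheroids, mostly Csf1r with 74 to 188 counts, against 0.141 to 3.22 CPM elsewhere, while Ptprc, the pan-leukocyte marker, had 1 to 5 counts there. The part of these markers in the Aqp9 values was not tested. Mip had at most 17 counts in a library, and Aqp2, Aqp6 and Aqp12 at most 3, which left Aqp5 as the abundant one of the cluster on chromosome 15.

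Aqp8 (ENSMUSG00000030762, chr7:123061514-123067227, plus strand), an apical channel of colonic epithelium that also passes ammonia and hydrogen peroxide, was counted above the floor in 1 condition only. Budding SOX9-Halo organoids held 49, 19 and 10 counts, while Halo-NLS held 0, 1 and 1, budding SOX9-mEGFP organoids 1, 2 and 1, SOX9-mEGFP spheroids 1, 2 and 3, and SOX9-Halo spheroids 0, 0 and 1. The lowest budding SOX9-Halo library was thus above the highest library of any other condition.

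Summed Aqp8 counts in budding SOX9-Halo organoids were 28.7 times those in Halo-NLS (interval 7.67 to 241), 18.1 times those in budding SOX9-mEGFP organoids (6.79 to 68.1) and 71.0 times those in SOX9-Halo spheroids (12.4 to 2839). No p is given, because the gene passed the filter on low counts only through the condition that was high, and its mean normalized count over all libraries was 5.36, below the minimum of 10. In the 4 other conditions no difference in Aqp8 was detectable at this depth.

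Aqp11 (ENSMUSG00000042797, chr7:97373213-97387524, minus strand), an aquaporin of the endoplasmic reticulum, was abundant in organoids and fell in steps. Normalized counts were 3675, 3907 and 2798 in Halo-NLS, 3571, 2938 and 1684 in budding SOX9-mEGFP organoids and 2875, 3316 and 2425 in budding SOX9-Halo organoids. They were 1124, 782 and 759 in SOX9-mEGFP spheroids and 308, 256 and 235 in SOX9-Halo spheroids. The organoid conditions overlapped with each other, SOX9-mEGFP spheroids lay below all of them, and SOX9-Halo spheroids lay below SOX9-mEGFP spheroids.

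Each step into spheroids passed the test. Against Halo-NLS, Aqp11 changed by −3.70 ± 0.29 (log2) in SOX9-Halo spheroids, 13.0-fold lower (adjusted p = 1.15e-07 in edgeR), and by −1.96 ± 0.27 in SOX9-mEGFP spheroids, 3.89-fold lower (adjusted p = 4.24e-05). Against budding organoids it changed by −3.43 ± 0.29 in the SOX9-Halo line (adjusted p = 2.34e-07) and by −1.62 ± 0.27 in the SOX9-mEGFP line (adjusted p = 0.000307). In budding organoids it was at −0.27 ± 0.26 (SOX9-Halo, adjusted p = 0.463) and −0.34 ± 0.26 (SOX9-mEGFP, adjusted p = 0.364) against Halo-NLS. Aqp11 kept its calls in these spheroid comparisons under every alternative tried, as did Aqp4.

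The lines were next compared directly. SOX9-Halo samples came from later passages than SOX9-mEGFP samples of the same shape, and their spheroids carried another H2B transgene, so line, passage and H2B transgene cannot be told apart in these comparisons. Between the spheroids of the 2 lines, Aqp7 and Aqp11 were called lower in SOX9-Halo, where 9.58% of all genes tested were called lower and 13.2% in either direction. Aqp11 was lower by 3.33-fold (−1.74 ± 0.27, adjusted p = 0.000226 in edgeR) and summed Aqp7 counts by 17.2 times (interval 7.67 to 48.0, adjusted p = 1.80e-05). Between the budding organoids of the lines 0 of the members open to a test were called by edgeR or DESeq2, where edgeR called 0.456% of all genes. Aqp4 and Aqp7 had an unadjusted p under 0.05, as did 8.37% of all genes, with Aqp8 left out of this count. Aqp7 was at −1.11 ± 0.33 (adjusted p = 0.192) and Aqp4 at −1.81 ± 0.57 (adjusted p = 0.223), each without overlap between the lines.

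The change from budding organoids to spheroids itself differed between the lines for Aqp7 and Aqp11, by a test of the interaction, in which 5.58% of all genes were called lower in the SOX9-Halo line and 7.39% in either direction. For Aqp11 the difference of the changes was −1.81 ± 0.38 (adjusted p = 0.00409 in edgeR) and for Aqp7 −2.90 ± 0.60 (adjusted p = 0.0039), with the SOX9-Halo spheroids at 2 counts of Aqp7 per library, so that the second value is not a measure of size. Both calls were near the threshold and were lost without budding SOX9-Halo replicate 1 (adjusted p of 0.0112 for Aqp7 and 0.0104 for Aqp11), without SOX9-Halo spheroid replicate 2 (0.016 and 0.014) or 3 (0.0165 and 0.0147), and without SOX9-mEGFP spheroid replicate 1 (0.011 and 0.013). Aqp7 alone was lost without budding SOX9-mEGFP replicate 2 (0.0103), and Aqp11 alone without budding SOX9-Halo replicate 2 (0.0107) or budding SOX9-mEGFP replicate 3 (0.0112). For Aqp1 the difference was 0.33 ± 0.38 (adjusted p = 0.672).

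Levels of different genes were compared as CPM per kb of the canonical transcript, which corrects for length. On that scale the 7 members summed to 188 ± 41.9 (SD, n = 3) in Halo-NLS, 162 ± 16.8 in budding SOX9-mEGFP organoids, 144 ± 29.3 in budding SOX9-Halo organoids, 120 ± 11.0 in SOX9-mEGFP spheroids and 205 ± 43.5 in SOX9-Halo spheroids. The totals of SOX9-mEGFP spheroids, 111 to 132, lay below those of Halo-NLS, 146 to 229, and of budding SOX9-mEGFP organoids, 143 to 175, without overlap, while Halo-NLS overlapped with the other 3 conditions.

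In organoids Aqp1 and Aqp11 made up most of the sum. Aqp1 took 74.3 ± 11.2% of it in Halo-NLS, 81.6 ± 3.64% in budding SOX9-mEGFP and 82.4 ± 1.69% in budding SOX9-Halo organoids (SD, n = 3), and Aqp11 took 15.3 ± 5.24%, 13.1 ± 3.48% and 15.9 ± 0.937%. In SOX9-mEGFP spheroids Aqp1 kept 82.2 ± 2.26%, with 11.0 ± 1.83% from Aqp5 and 5.95 ± 1.85% from Aqp11. In SOX9-Halo spheroids Aqp5 reached 38.5 ± 2.80% beside 54.4 ± 4.26% of Aqp1, with Aqp3 at 6.00 ± 1.68% and Aqp11 at 1.04 ± 0.0825%. Among the 7 members, Aqp5 was thus the second most abundant transcript in both spheroid conditions and the least or second least abundant in the 3 organoid conditions. With the length of all annotated exons in place of the canonical transcript, the Aqp5 share in SOX9-Halo spheroids was 31.0 ± 2.56% and that of Aqp1 61.9 ± 4.22%.

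**Figure D3:**
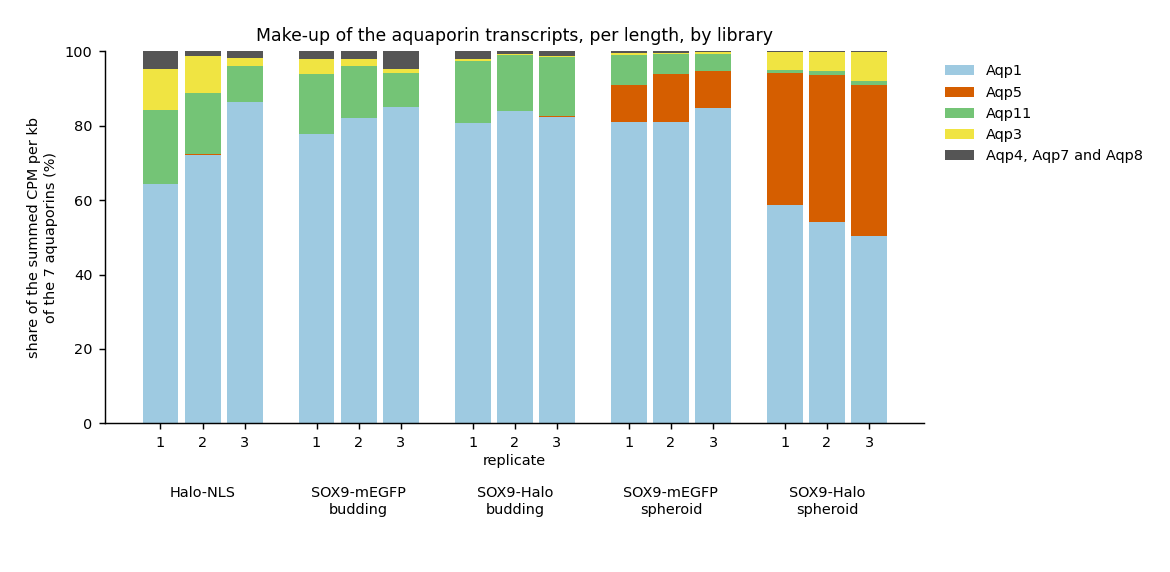
Share of each aquaporin in the summed CPM per kb of the 7 members (%), 1 stacked bar per library and 3 libraries per condition. Aqp1 fills 50.2% to 86.3% of every bar, and Aqp5 is visible in the spheroids only, at 35.4% to 40.7% in the SOX9-Halo line.

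The genes next to Aqp5 and Aqp3 were read to see whether the whole neighbourhood moved. Of the 3 nearest tested protein-coding genes on either side of Aqp5, Faim2, an inhibitor of Fas-mediated cell death, has its start 62.0 kb before that of Aqp5. Against Halo-NLS it stood higher by 5.85 ± 0.66 in SOX9-Halo spheroids and by 2.91 ± 0.66 in SOX9-mEGFP spheroids. No p is given for Faim2, because it was low in the organoids and its passing the filter on low counts rested on the spheroids. The mean normalized count of Faim2 was 5.00 in Halo-NLS, 4.47 and 3.34 in the budding conditions, 38.1 in SOX9-mEGFP spheroids and 293 in SOX9-Halo spheroids. The order of spheroids was the same as for Aqp5, and a link between the 2 genes was not tested. Nckap5l, on the same side, rose in SOX9-Halo spheroids (2.97 ± 0.57, adjusted p = 0.000593 in edgeR) and stood at 0.80 ± 0.58 in SOX9-mEGFP spheroids (adjusted p = 0.26).

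On the other side of Aqp5, the acid-sensing channel gene Asic1 fell in both, with −1.52 ± 0.29 in SOX9-Halo spheroids (adjusted p = 0.000612) and −2.38 ± 0.30 in SOX9-mEGFP spheroids (adjusted p = 2.06e-05). Bcdin3d, Racgap1 and Smarcd1 were called in neither. Around Aqp3, Aqp7 was the one of 6 neighbours that was called, lower in both kinds of spheroids, and Chmp5, Nfx1, Nol6, Ube2r2 and Ubap2 were not. The members of the pair Aqp3 and Aqp7 therefore stood apart in SOX9-Halo spheroids, Aqp3 at 612 to 772 normalized counts and Aqp7 at 1.80 to 2.37.

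**Figure D4:**
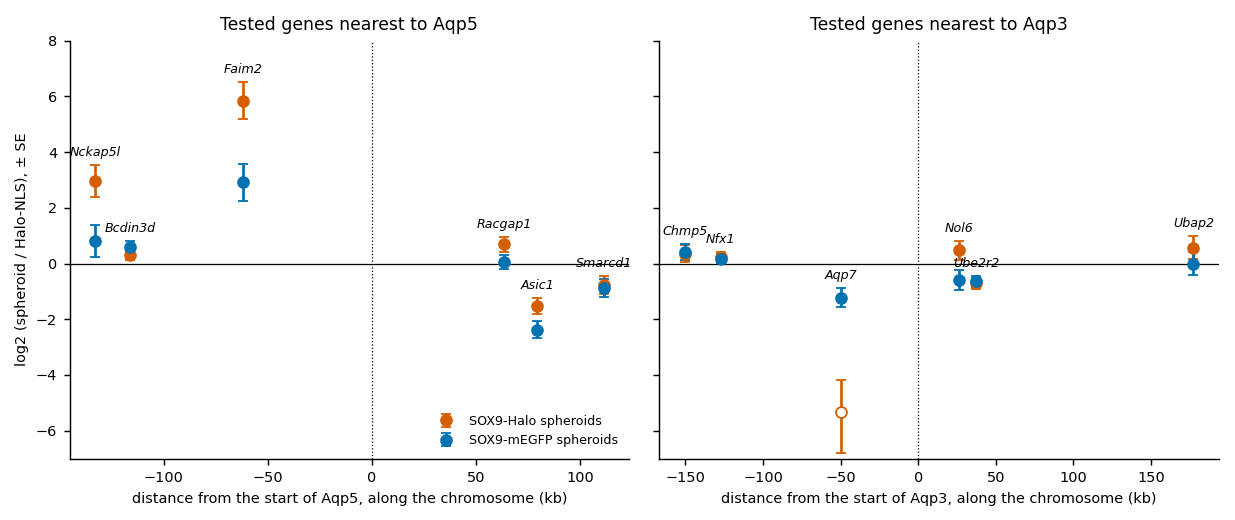
Log2 change of the 3 nearest tested protein-coding genes on each side of Aqp5 (left) and Aqp3 (right) in SOX9-Halo (orange) and SOX9-mEGFP (blue) spheroids against Halo-NLS, ± SE, by distance between gene starts in kb. Faim2 stands at 5.85 and 2.91, Asic1 at −1.52 and −2.38, and the open point for Aqp7 is a ratio of summed counts with its 95% counting interval.

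For the members that averaged 100 or more normalized counts, the genes with the most similar pattern over the 15 libraries were listed by Pearson correlation of log2 CPM among 11054 genes. These values describe likeness over libraries that share 5 conditions and carry no test. For Aqp5 they were Rab34 (r = 0.994), Cavin2 (0.994), Syt16 (0.993), Capn6 (0.993) and Rab11fip5 (0.992). Rab11fip5 had normalized counts of 5876 to 6716 in SOX9-Halo spheroids, 703 to 1313 in SOX9-mEGFP spheroids and at most 7.78 in the organoids, on nearly the same scale as Aqp5.

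For Aqp11 the list was Dhrs11 (0.995), Acaa1b (0.995), Slc5a1 (0.993), Glrx (0.992) and Tspan13 (0.992), and for Aqp4 it was Defa17 (0.984), Acer1 (0.982), Ang4 (0.977), Itln1 (0.976) and Wnt3 (0.970). Aqp3 had weaker matches, Smad6 (0.903), 1810055G02Rik (0.8996), Gpr137 (0.890), Pgam1 (0.887) and Mrpl43 (0.885). Smad6 had 226 to 322 normalized counts in Halo-NLS and 201 to 256 in SOX9-Halo spheroids, against 12.4 to 78.9 in the other 3 conditions. The closest gene to Aqp1, E4f1, reached 0.774.

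Genes that work beside the aquaporins were taken from 3 lists. Of 22 tested genes for epithelial ion and fluid transport, 4 rose and 13 fell in SOX9-Halo spheroids against Halo-NLS, with a median change of −1.91 beside −0.01 over all genes, and 5 rose and 8 fell in SOX9-mEGFP spheroids, with a median of −0.26 beside 0.03. Of all genes tested, 13.6% rose and 15.3% fell in the former, and 15.3% rose and 12.1% fell in the latter. Among the most abundant, Slc5a1, the apical sodium and glucose cotransporter, fell in both, with −9.53 ± 0.84 (adjusted p = 3.18e-07 in edgeR) and −5.13 ± 0.69 (adjusted p = 3.24e-05). Atp1b1, a beta subunit of the sodium pump, was at −1.12 ± 0.32 (adjusted p = 0.0103) and −0.15 ± 0.32 (adjusted p = 0.705).

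Chosen after their values were seen, the 4 that rose in both kinds of spheroids were Ano1, Slc26a9, Kcnn4 and Kcne3, which encode chloride channels or exchangers and potassium channel subunits. Ano1, the calcium-activated chloride channel, averaged 35.9 normalized counts in Halo-NLS, 3300 in SOX9-Halo spheroids and 3316 in SOX9-mEGFP spheroids. Cftr, the cAMP-gated chloride channel, also chosen after its values were seen, parted between the lines. It averaged 8.57 in SOX9-Halo spheroids and 1206 in SOX9-mEGFP spheroids, against 386 in Halo-NLS, and no p is given for it.

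Of 16 tested genes for cell volume and osmotic response, 5 rose and 2 fell in SOX9-Halo spheroids (median 0.57), and 8 rose and 0 fell in SOX9-mEGFP spheroids (median 1.19). The shares of all genes tested were 13.6% rising and 15.3% falling in SOX9-Halo spheroids, and 15.3% and 12.1% in SOX9-mEGFP spheroids. These values are against Halo-NLS. Against budding SOX9-Halo organoids 4 rose and 3 fell (median −0.25), where 25.3% of all genes were called in either direction. Against budding SOX9-mEGFP organoids 4 rose and 0 fell (median 0.18), where 16.4% were. Slc6a6, the taurine transporter, and Slc12a7, a potassium chloride cotransporter, fell in SOX9-Halo spheroids, with −1.24 ± 0.34 (adjusted p = 0.00791 in edgeR) and −1.74 ± 0.35 (adjusted p = 0.00079). In SOX9-mEGFP spheroids they were at −0.36 ± 0.34 (adjusted p = 0.382) and −1.15 ± 0.34 (adjusted p = 0.0125). Oxsr1, a kinase of the WNK pathway, was at −0.01 ± 0.18 and −0.03 ± 0.18. Trpv4, an osmosensitive calcium channel chosen after its values were seen, stood higher by 8.20 ± 0.59 and 4.60 ± 0.56. No p is given for it, because of that choice.

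Glycerol, the second cargo of Aqp3 and Aqp7, is made and used by the enzymes of the third list. Of its 13 tested genes 9 fell and 0 rose in SOX9-Halo spheroids (median −2.07), and 9 fell and 0 rose in SOX9-mEGFP spheroids (median −2.05). Over all genes tested 15.3% fell and 13.6% rose in the former, and 12.1% fell and 15.3% rose in the latter. Dgat1, which adds the last fatty acid in triglyceride synthesis, fell in both, with −4.14 ± 0.36 (adjusted p = 2.75e-07 in edgeR) and −2.92 ± 0.34 (adjusted p = 8.76e-06). Gpd2, the mitochondrial glycerol phosphate dehydrogenase, was at 0.00 ± 0.24 and −0.10 ± 0.24, and Plin2, a lipid droplet coat protein, was at −0.04 ± 0.28 in SOX9-Halo spheroids and fell by 1.502 ± 0.29 in SOX9-mEGFP spheroids (adjusted p = 0.000673). Glycerol kinase, Gk, chosen after its values were seen, was not called in either (0.80 ± 0.48 and 0.75 ± 0.48).

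**Figure D5:**
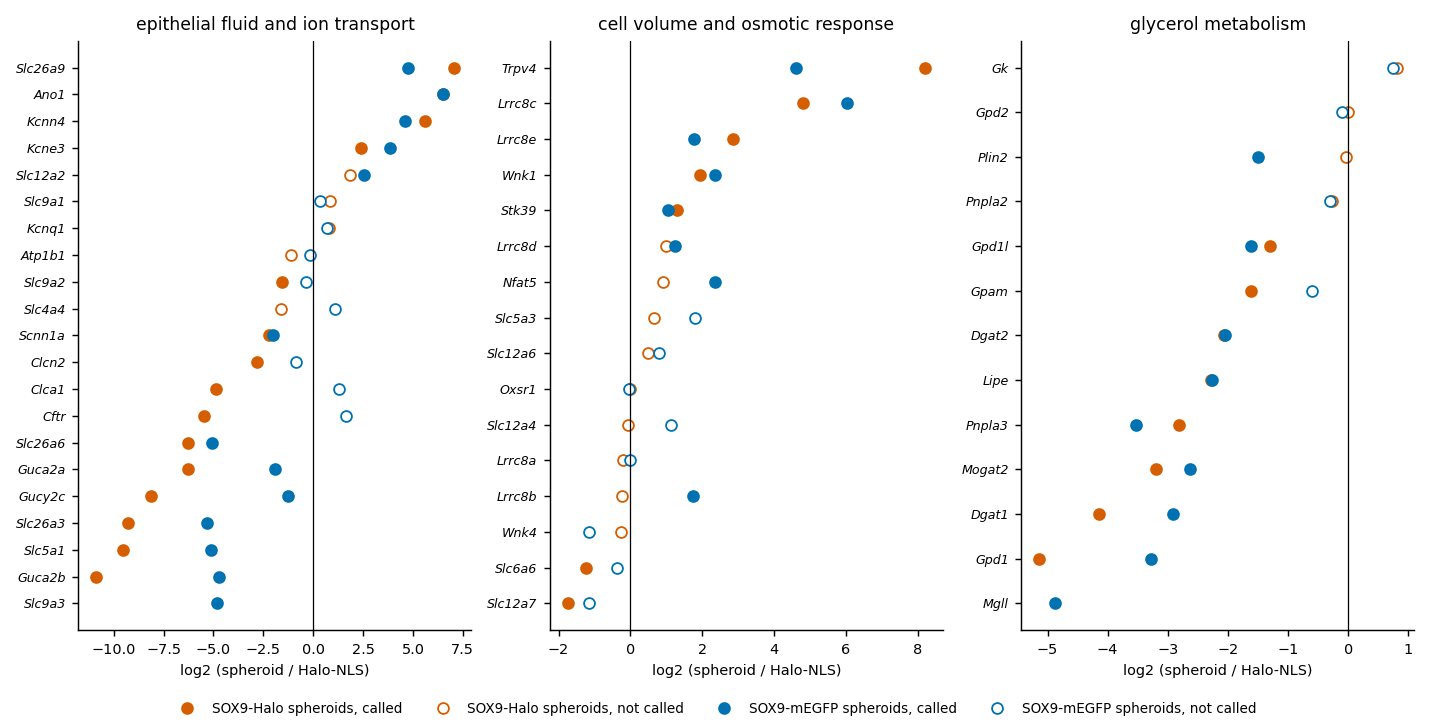
Log2 change in SOX9-Halo (orange) and SOX9-mEGFP (blue) spheroids against Halo-NLS for the tested genes of the lists for ion and fluid transport (22), cell volume (16) and glycerol metabolism (13), filled where called, with 1 transport gene not drawn. The orange points of Slc9a3 and Mgll are left out because no SOX9-Halo spheroid library held more than 3 counts of them, and the glycerol list lies mostly left of 0 in both lines.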

How the data were processed

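The authors trimmed the poly-A reads with cutadapt 4.5, aligned them with STAR to GRCm39 (mm39), kept unique alignments and counted them per Ensembl gene with HTSeq 2.0.2 in union mode without strand. The deposited files hold raw counts per gene for each library. The libraries held 28062722 to 40559766 counted reads (median 33491297), and 9.65% to 13.6% of reads were ambiguous and 1.83% to 6.09% fell in no gene, which stayed out of library sizes. The authors' comparison tables hold mean normalized counts, fold changes and p-values and were not used.

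The members and the gene lists were chosen with earlier results of these data known. Counts of all 15 libraries were fitted in edgeR 4.0.16 (R 4.3.3) with 1 coefficient per condition, TMM factors and filterByExpr, tested by quasi-likelihood with Benjamini-Hochberg adjustment over 17560 genes (biological coefficient of variation 0.302), and checked on simulated counts. Replicates were called biological, so p-values measure the spread between libraries of 1 line. Replicate numbers were taken to pair libraries only where every correlation of same-numbered deviations passed a set minimum. This held in 1 comparison, SOX9-Halo spheroids against budding organoids (0.403, 0.234 and 0.344). Some single correlations were higher elsewhere. They were 0.470, 0.817 and −0.055 for budding SOX9-Halo organoids against Halo-NLS, and 0.040, 0.358 and 0.740 between the budding lines. Same-numbered libraries were thus alike in parts of those comparisons too. Promoters are the 250 bases before the canonical starts of GENCODE M39 on GRCm39, compared with RefSeq promoters of GRCm38.p6. Of the gene IDs in the files, 78168 of 78298 matched this annotation.

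Named genes were all 7 members, the other aquaporin genes, the 3 most abundant tested genes of each list, the 5 genes most similar to each member and the 3 nearest tested genes on each side of Aqp5 and Aqp3; others are marked where they appear, and 1 gene of the transport list, included in its counts, is not reported here. Beside the marker lists given with the members, the 5 fibroblast markers summed to at most 1.45 CPM and the 6 erythroid markers to at most 0.537 CPM in any library. Alternatives were RLE size factors, DESeq2 1.42.0, no low-count filter, only the libraries compared, an adjusted p of 0.05 with no fold threshold, the replicate block, each library left out and, chosen after seeing the data, library sizes alone and the block within the SOX9-Halo line. No protein sequences were used here.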

Additional observations from a re-analysis of the deposited data

Results flagged for a closer look

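Aqp3 was picked out because its change from budding organoids to spheroids ran in opposite directions in the 2 SOX9 lines, with every spheroid library above every budding library in the SOX9-Halo line (4.74 on the log2 scale) and below it in the SOX9-mEGFP line (−2.77, or −3.25 to −2.02 with 1 library left out). The difference between the lines was not tested for this gene, since Aqp3 was chosen for its change.

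Aqp7 and Aqp11 were picked out by the test of the interaction, in which the change from budding organoids to spheroids differed between the lines. The difference, SOX9-Halo minus SOX9-mEGFP, was −2.90 for Aqp7 (adjusted p = 0.0039 in edgeR) and −1.81 for Aqp11 (adjusted p = 0.00409), and lower in the SOX9-Halo line in each case. Both calls were lost without some single libraries, with an adjusted p of up to 0.0165 for Aqp7 and 0.0147 for Aqp11 in edgeR. SOX9-Halo spheroids held 2 counts of Aqp7 per library, so its value is not a measure of size. Line, passage and H2B transgene cannot be told apart here.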

How the results depend on the processing

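Of the members open to a test, 0 were called in budding SOX9-Halo organoids against Halo-NLS, but 1 (Aqp4) with no low-count filter and 1 (Aqp4) with DESeq2. At an adjusted p of 0.05 with no fold threshold, Aqp4 and Aqp7 passed. Between the budding lines the count of 0 became 1 with no filter (Aqp4) and stayed at 0 at an adjusted p of 0.05. Aqp8, admitted by the condition where it is high, is left out of the counts at 0.05. The count of 2 for the difference between the lines ranged from 0 to 2 with 1 library left out. For SOX9-mEGFP spheroids against Halo-NLS the count of 3 became 2, by loss of Aqp7, with no filter or with library sizes alone. The same loss followed when any 1 of the 6 libraries was left out. With the replicate number as a block, the count for SOX9-mEGFP spheroids against budding organoids went from 2 to 3 (Aqp7), and the counts of the other comparisons were as without it. Fitting only the 6 SOX9-Halo libraries gave 4 in place of 3 when Aqp8 was counted in, with or without the block. The gained member was Aqp8, which passes the filter and the minimum mean only through the condition where it is high.

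Signs changed only for differences that passed no test or, for Aqp3, had none, and the cause was not tested. Aqp3 in SOX9-Halo spheroids against Halo-NLS went from −0.16 to 0.088 with the block and 0.12 with library sizes alone (−0.56 to 0.18 with 1 library left out). In budding SOX9-Halo organoids against Halo-NLS, library sizes alone gave 0.032 for Aqp1 (−0.48 to 0.049 with 1 library left out) and 0.020 for Aqp11. In budding SOX9-mEGFP organoids against Halo-NLS, Aqp1 became 0.12 with library sizes alone (−0.34 to 0.19 with 1 library left out), Aqp4 became 0.052 with no filter, 0.15 with the block and 0.26 with library sizes alone (−0.72 to 0.55), and Aqp7 became −0.068 with the block (−0.40 to 0.31). With 1 library left out, Aqp1 ranged from −0.31 to 0.12 between SOX9-Halo spheroids and budding organoids and from −0.050 to 0.36 between the spheroids of the lines, and Aqp11 from −0.20 to 0.31 between the budding lines.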

Other observations

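Among the promoter windows of the 6 members read, that of Aqp8 held the TEAD core GGAATG 218 to 213 bases before its start, and the windows of Aqp1, Aqp7 and Aqp11 held none of the letters searched, which were the SOX core, the TEAD core, the CDX core TTTATG (in 10.0% of 21723 promoters), the AP-1 letters TGANTCA (6.19%), the GC box and the TATA box. The Aqp1 window shares fewer than 100 bases with the RefSeq promoter of that gene, as for Aqp5.

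Slc5a1, the transporter named above among those that fell, was also the third closest gene to Aqp11 over the 15 libraries. Its normalized counts ranged from 68.1 to 104 in SOX9-Halo spheroids, from 565 to 3237 in SOX9-mEGFP spheroids and from 42353 to 85053 in Halo-NLS. The means of these 3 conditions stood in the same order for Aqp11, which the high correlation already implies and which is no separate result.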
